A study of Mus musculus with 5 samples.

Results

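The loci of 10 genes used to recognise retinal ganglion cells (RGCs) were examined for Pou4f1 occupancy in the embryonic mouse retina. The genes were the neurofilament genes Nefl, Nefm and Nefh, the RNA-binding protein genes Rbpms and Rbpms2, the growth-associated genes Gap43 and Nrn1, Sncg, Thy1 and the glutamate transporter gene Slc17a6. Every region of the deposited table that overlapped the body of one of these genes or lay within 50 kb of it (GENCODE M21, mm10) was taken, by position only, which gave 17 of 8038 regions. All 10 genes had at least 1 such region, beside 53.1% of all protein-coding genes. Nefl and Nefm lie side by side and shared their 4 regions. The region nearest the limit on the inside lay 44.7 kb from the Nefl body and 43.4 kb from that of Nefm, and measured 132 and 106 with anti-Pou4f1. The nearest region beyond it lay 50.3 kb from Rbpms, with 168 and 166.

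The data came from CUT&Tag, in which an antibody directs a transposase to the DNA around its target and the freed fragments are sequenced. Each library was made from 4 wild-type E16.5 retinas, pooled, from mice of a mixed strain background. The Pou4f1 group used a rabbit antibody against Pou4f1 (n = 2), and the control group used non-specific rabbit IgG (n = 2), of which 1 column is headed IgG and the other as a negative control. A library with an antibody against H3K9AC was not analysed here. The study calls the 2 libraries of each group independent replicates, and no source used here says whether each came from its own pool of retinas. The p-values measure the spread between these libraries.

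Axons of RGCs form the optic nerve and carry all visual output to the brain. Pou4f1, also called Brn3a, is a POU-domain transcription factor made by a large share of RGCs, and POU-domain factors of its class recognise AT-rich sites. Neurofilaments are the intermediate filaments of long axons and are assembled from light, medium and heavy chains. Rbpms and its paralogue Rbpms2 bind RNA and are used as pan-RGC markers. In a pool of retinal cells, the number of cells with an occupied site and the signal per cell cannot be told apart, and signal beside a gene does not measure its expression.

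The values are the mean signal over each region, and they are not read counts. Signal multiplied by region length came out as whole multiples of a step of 45.0 and 61.2 in the Pou4f1 libraries and of 76.2 and 88.9 in the IgG and negative-control libraries (at least 99% of values within 0.05 of a step). Divided by that step, the median member region held 4.10 and 3.64 steps per base in Pou4f1 replicates 1 and 2, and no member region held more than 0.343 in either IgG library. If a step is 1 fragment over 1 base, which the sources used here do not state, the IgG values of these regions each rest on under 1 fragment per base. For the 6 regions at 0 in both IgG libraries, the pseudocount sets the log2 difference, which is given for the fit only and is no fold. Over these 6, it ran from 6.90 to 9.35 with the pseudocount of 1 used here, from 10.21 to 12.67 with 0.1 and from 3.68 to 6.05 with 10.

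Sequences are shown for the member regions with the highest signal and for those that hold a POU-type motif, since these are the letters a reader would compare with the signal. Motifs were ATNAATNAT (POU IV type), ATNAATATT (Pit-1 or Brn2 type) and ATGCAAAT (octamer), searched on both strands, and matches are in capitals. A match on the minus strand appears as its reverse complement where the plus strand is printed. The 250 bases before an internal Slc17a6 start in RefSeq (GRCm38.p6, plus strand, chr7:51624387-51624636) hold 3 overlapping POU IV matches, which cover the run ATGATTAATTATTCAT.
Slc17a6 intron 1: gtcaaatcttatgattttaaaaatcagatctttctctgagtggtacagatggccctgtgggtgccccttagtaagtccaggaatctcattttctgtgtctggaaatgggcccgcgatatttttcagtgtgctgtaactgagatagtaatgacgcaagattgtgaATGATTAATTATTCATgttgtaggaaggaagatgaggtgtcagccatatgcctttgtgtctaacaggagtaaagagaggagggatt
The central 300 bases of the region past the 3′ end of Rbpms (mm10, plus strand, chr8:33778276-33778575) hold 1 POU IV match on the minus strand. Those of the next strongest region, inside the gene (mm10, plus strand, chr8:33799699-33799998), hold none of the 3 motifs.
Rbpms, past the 3′ end: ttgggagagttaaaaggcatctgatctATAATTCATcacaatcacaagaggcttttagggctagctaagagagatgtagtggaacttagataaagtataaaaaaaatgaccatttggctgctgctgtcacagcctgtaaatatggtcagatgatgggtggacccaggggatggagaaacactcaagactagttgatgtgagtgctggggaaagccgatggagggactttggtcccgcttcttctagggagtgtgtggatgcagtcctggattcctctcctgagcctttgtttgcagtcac
Rbpms, inside the gene: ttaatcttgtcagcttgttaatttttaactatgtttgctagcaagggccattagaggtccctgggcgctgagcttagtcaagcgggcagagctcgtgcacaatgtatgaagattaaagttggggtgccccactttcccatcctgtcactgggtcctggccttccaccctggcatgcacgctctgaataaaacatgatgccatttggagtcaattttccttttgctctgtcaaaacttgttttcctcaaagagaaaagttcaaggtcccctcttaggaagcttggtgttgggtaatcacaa
The farther of the 2 distal regions of the neurofilament locus (mm10, plus strand, chr14:68038598-68038897) holds an octamer match on the minus strand and a POU IV match on the plus strand.
Nefl and Nefm, distal: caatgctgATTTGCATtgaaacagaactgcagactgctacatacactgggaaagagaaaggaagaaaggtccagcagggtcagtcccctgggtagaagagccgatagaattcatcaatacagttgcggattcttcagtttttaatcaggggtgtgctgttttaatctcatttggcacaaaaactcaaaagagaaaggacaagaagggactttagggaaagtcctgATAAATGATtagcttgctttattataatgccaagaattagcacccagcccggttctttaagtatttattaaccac
Matches in other member regions are printed with 8 bases on each side, 5′ to 3′ on the strand of the match. They lie at chr14:34374672-34374696 (minus, at the Sncg start), chr9:65660202-65660226 (plus) and chr9:65660163-65660187 (minus) in the Rbpms2 3′ UTR, chr13:36725176-36725200 (plus, past the Nrn1 gene end), chr16:42226306-42226330 (plus, past the Gap43 gene end) and chr7:51629088-51629112 (plus, Slc17a6 intron 3). The Sncg match is in the 5′ UTR by the GENCODE start but upstream of the start in RefSeq.
Sncg start: gccacagcATCAATATTtcatctgc
Rbpms2 end, first: tgtttaccATTAATTATtaaagaga
Rbpms2 end, second: tatgatccATAAATATTttgttaca
Nrn1 end: gctgtcttATTAATTATgaaaggat
Gap43, past the 3′ end: aaaggcccATGAATATTtcaaagcc
Slc17a6 intron 3: ccaaaattATAAATAATtcagtcac

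Pou4f1 signal was above IgG signal at every member region, most strongly at Rbpms. The lower Pou4f1 value exceeded the higher IgG value in 17 of 17 member regions, beside 96.5% of all regions. The difference passed limma's moderated test on log2(signal + 1), adjusted by Benjamini-Hochberg over all regions, in 16 of 17, beside 64.8% of all regions. The authors' peak calling selected regions for Pou4f1 signal, so an excess over IgG is in part set by that selection. The median log2 difference was 6.90 over the member regions and 5.22 over all regions. Median mean Pou4f1 signal was closer, at 194 and 173. In IgG and the negative control the medians were 0.977 and 0 over the member regions, beside 4.78 and 7.96 over all regions. In the table as a whole, 99.7% of regions at 0 in both IgG libraries were called, against 39.4% of those at 0 in 1 of them and 74.1% of those above 0 in both. These classes held 1835, 3516 and 2687 of all 8038 regions, and 6, 7 and 4 of the member regions. At 0 in both were 35.3% of member regions and 22.8% of all regions, so the higher member values are in part set by IgG signal. The median log2 difference of the member regions was 6.76 without Pou4f1 replicate 1 and 6.95 without Pou4f1 replicate 2. In these fits the only spread within a group is that between the 2 IgG libraries. Which regions pass there depends on how close their IgG values are, so these fits cannot show how far a call rests on a Pou4f1 replicate. In a further fit each library was divided by its total, the sum of signal times length over all regions. These totals were 1.83e+09 and 1.71e+09 in the Pou4f1 libraries, 9.85e+07 in IgG and 1.35e+08 in the negative control. The regions were selected for Pou4f1 signal, so this division lowers Pou4f1 relative to IgG by construction and is no correction for sequencing depth. With it, 7 member regions were called, and the median log2 difference of all regions fell from 5.22 to 2.80.

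**Figure D1:**
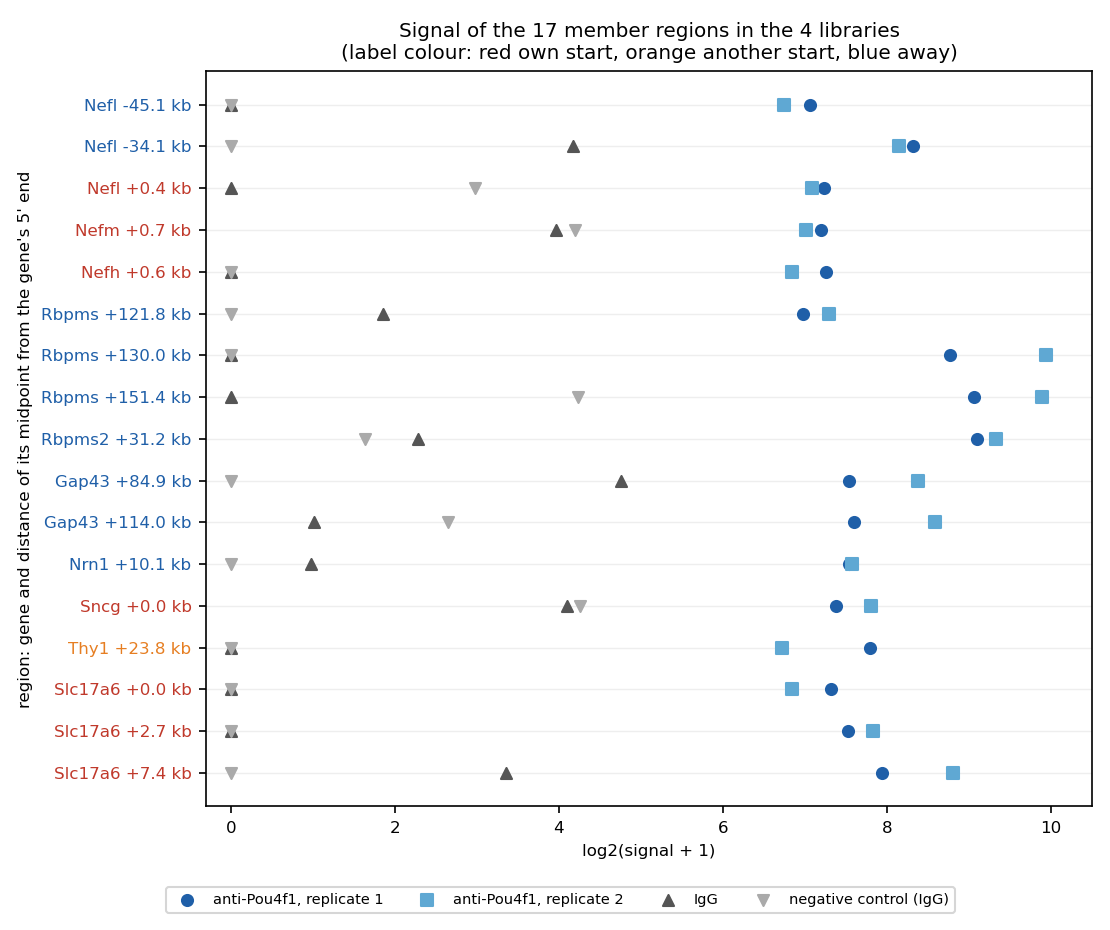
Signal of the 17 member regions in each library, as log2(signal + 1), with regions named by gene and by distance of the midpoint from the annotated 5′ end in kb. In every row both Pou4f1 points lie to the right of both IgG points, and 6 rows have both IgG points at 0.

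Each neurofilament gene had a region within 1 kb of its start, over the start at Nefl and Nefm and just inside the gene at Nefh, and all were of modest signal. Nefl, on chromosome 14 (68083863 to 68089095, plus strand), encodes the light chain. Its start region (chr14:68083655-68084955, 1301 bp, exon 1) measured 150 and 134 with anti-Pou4f1, 0 with IgG and 6.90 in the negative control. The groups did not overlap, and the log2 difference was 5.67 ± 1.24 (SE, limma adjusted p = 0.0335). Without Pou4f1 replicate 1 or 2 the log2 difference was 5.59 or 5.74. It was 4.18 without the IgG library and 7.16 without the negative control. Nefm encodes the medium chain and is transcribed from the minus strand towards Nefl. Its start region (chr14:68123328-68124966, 1639 bp, exon 1) had 146 and 128 in the Pou4f1 replicates against 14.7 and 17.4 in IgG and the negative control. The log2 difference was 3.02 ± 0.39 (limma adjusted p = 0.0113), the smallest among the member regions. With each library divided by its total over all regions, it turned to −0.83 (limma adjusted p = 0.329). Nefh, on chromosome 11 (4938754 to 4948064, minus strand), encodes the heavy chain and had 1 region, in exon 1 and ending short of the annotated start (chr11:4946802-4948058, 1257 bp). It measured 152 and 114 with anti-Pou4f1 and 0 in both IgG libraries, with a log2 difference of 7.05 ± 0.41 (limma adjusted p = 0.00222). The 3 neurofilament start regions were close to one another in signal, with means of 142, 137 and 133, and ranked 5111, 5314 and 5481 of 8038. Each was lower in Pou4f1 replicate 2 than in replicate 1.

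Upstream of Nefl, past the end of Nefm, lay a pair of distal regions. The nearer one, 33.7 kb before Nefl and in intron 1 of the predicted gene Gm31107 (chr14:68049449-68050141, 693 bp), had 319 and 282 in the Pou4f1 replicates against 17.1 and 0 in IgG and the negative control. It was the highest of the 4 regions of this locus, at rank 1499, and its log2 difference of 6.15 ± 1.69 was close to the threshold (limma adjusted p = 0.0494). That difference was 6.06 or 6.24 without Pou4f1 replicate 1 or 2, 8.23 without the IgG library and 4.06 without the negative control. The farther one, 44.7 kb before Nefl (chr14:68038295-68039200, 906 bp), had 132 and 106 in the Pou4f1 replicates and 0 in both IgG libraries. It ranked 6021, the lowest of the 17, yet its log2 difference was 6.90 ± 0.39 (limma adjusted p = 0.00222), and it is the region printed above with an octamer and a POU IV match. Across its full length it held 2 POU IV matches and 1 octamer, of which 1 POU IV match lies outside the printed bases. Both distal regions lie in the windows of Nefl and Nefm alike, and the data do not tie them to either gene.

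The start regions of Nefl and Nefm had less signal than the mean of these distal regions, which rests on the nearer one (319 and 282). The farther distal region (132 and 106) was below both start regions in each replicate. The log2 ratio of start to distal signal was −0.59 in replicate 1 and −0.53 in replicate 2 for Nefl, and −0.63 and −0.60 for Nefm, with the same distal regions in both. With 2 replicates no exact test can pass a threshold, so these are values without a test. The direction depended on region length: with signal multiplied by length, which favours the wider start regions, the ratios were 0.23 for Nefl and 0.51 for Nefm. The annotated Nefm body of 42.3 kb comes from a long transcript that encloses Nefl, whereas the principal Nefm transcript spans 5.56 kb.

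**Figure D2:**
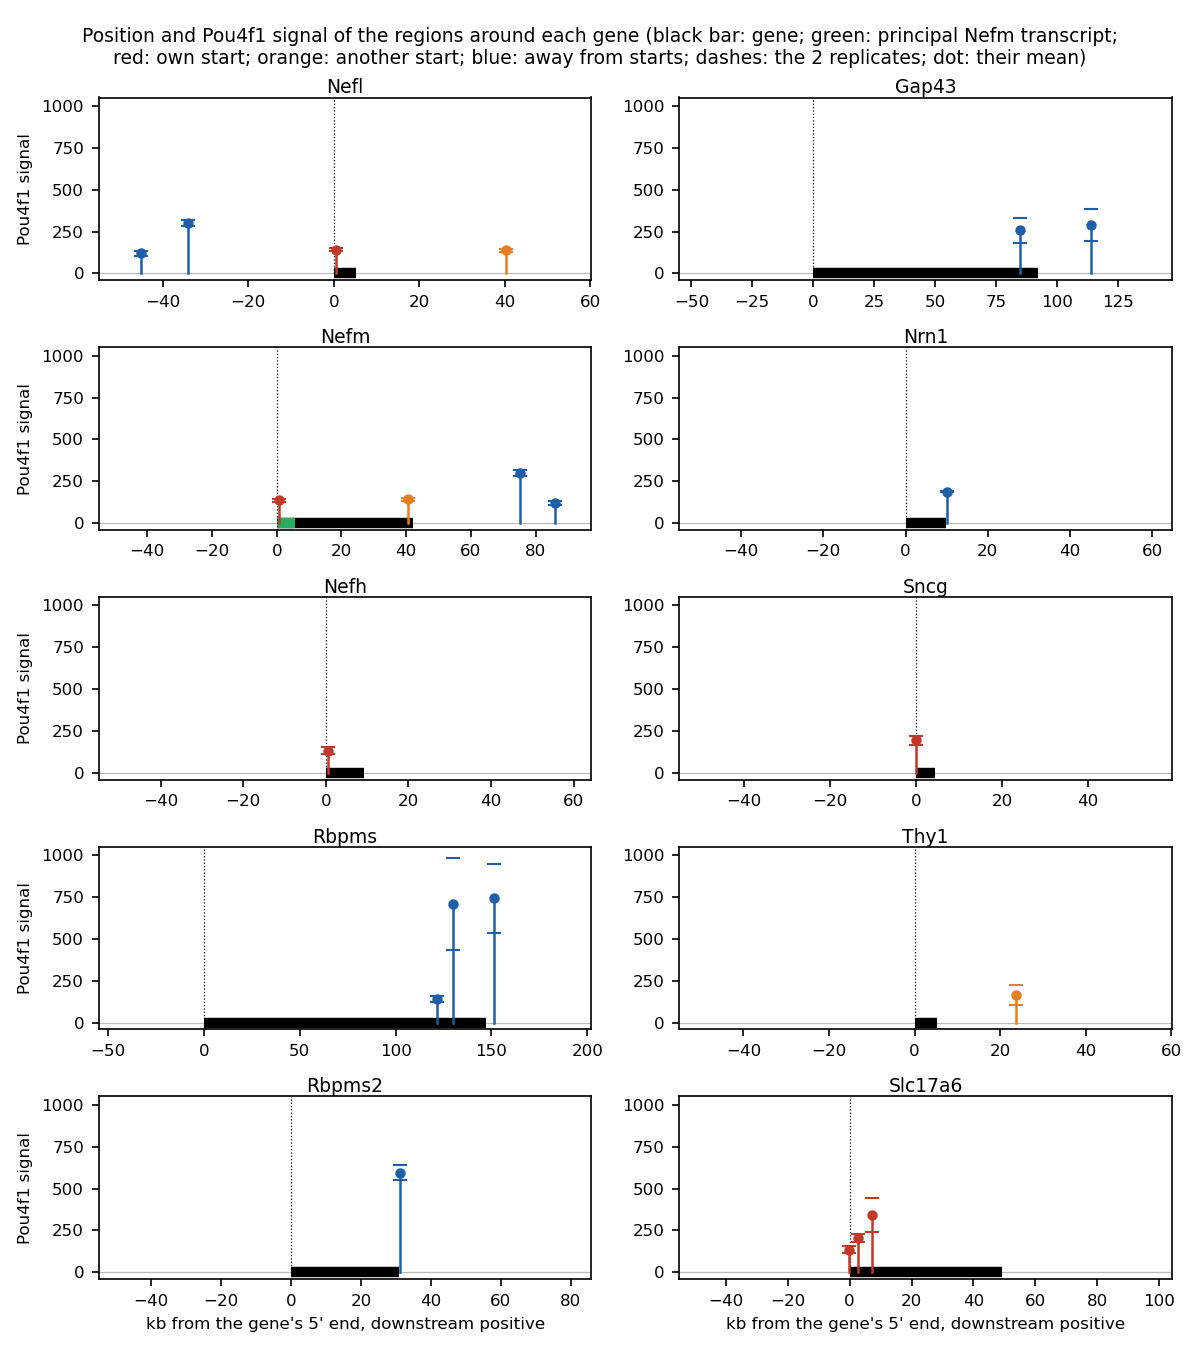
Position of each region around its gene, in kb from the annotated 5′ end and oriented so that downstream is positive, with Pou4f1 signal on the vertical axis (dashes are the 2 replicates and dots their mean, in red at an own start, orange at another start and blue away from starts). The tallest points stand near or past the 3′ ends of Rbpms and Rbpms2, while the neurofilament start regions reach at most 152 in any library.

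The 3 strongest member regions lay in the windows of the RNA-binding protein genes, and none lay at a start. Rbpms spans 147 kb on chromosome 8 (33782643 to 33929863, minus strand), and its 3 regions all lay in the last part of the gene or past it. The region 3818 bp past the 3′ end (chr8:33778026-33778824, 799 bp), between Rbpms and the neighbouring gene Gtf2e2 and closer to the end of Gtf2e2, had 535 and 949 in the Pou4f1 replicates against 0 and 17.8 in IgG and the negative control. Position does not tie it to either gene. It had the highest mean signal of the 17 and ranked 84, with a log2 difference of 7.36 ± 1.74 (limma adjusted p = 0.0385). That difference was 7.77 or 6.95 without Pou4f1 replicate 1 or 2, 5.25 without the IgG library and 9.48 without the negative control. The region 130.0 kb into the gene (chr8:33799133-33800564, 1432 bp), which lies beyond the end of the principal transcript but inside longer ones, had 434 and 983 in the Pou4f1 replicates and 0 in both IgG libraries. It ranked 103 by signal, and its log2 difference of 9.35 ± 0.60 (limma adjusted p = 0.00244) was the largest of the 17, at rank 40 of the table. The third region, in intron 5 of 6 of the principal transcript (chr8:33807579-33808533, 955 bp), was far weaker, with 125 and 156 against 2.63 and 0, and a log2 difference of 6.21 ± 0.83 (limma adjusted p = 0.0123). Both stronger regions lay above it in each replicate.

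Rbpms2, on chromosome 9 (65629648 to 65660528, plus strand), had a single region that spanned its 3′ end (chr9:65659304-65662460). It measured 549 and 643 with anti-Pou4f1 against 3.86 and 2.11 in IgG and the negative control, with a log2 difference of 7.26 ± 0.46 (limma adjusted p = 0.00243). At 3157 bp it was the longest member region, of which 1091 bp were 3′ UTR, and it ranked 185 by signal but 6 of 8038 by signal multiplied by length. It was also the highest member region in replicate 1 alone, at rank 201. Its central 300 bases held no match to the 3 motifs, but the UTR part held a POU IV and a Pit-1 or Brn2 match, both printed above. Neither paralogue had a region within 1 kb of a start of its own. With a limit of 3 kb both did, through annotated internal starts 1220 and 2634.5 bp from a pair of Rbpms regions and 1905 bp from the Rbpms2 region.

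**Figure D3:**
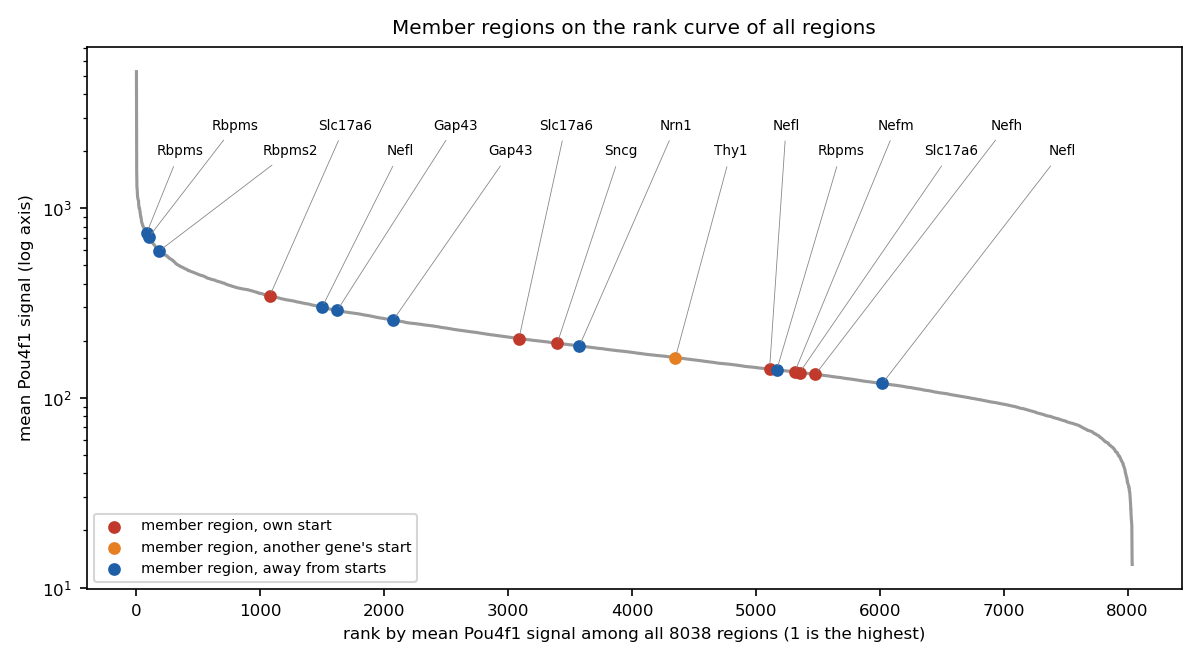
Mean Pou4f1 signal (log axis) of all 8038 regions against rank, with the 17 member regions marked by class. The regions at Rbpms and Rbpms2 with ranks 84, 103 and 185 stand apart from the rest, which lie between ranks 1077 and 6021.

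The growth-associated genes had no region at a start, and their regions lay at different distances from the 3′ end. Gap43 encodes a membrane protein of growing axon tips and lies on chromosome 16 (42248442 to 42340651, minus strand). The region 21.1 kb past its 3′ end (chr16:42225956-42227308, 1353 bp, intergenic) had 194 and 385 in the Pou4f1 replicates against 1.01 and 5.26 in IgG and the negative control, with a log2 difference of 6.27 ± 0.84 (limma adjusted p = 0.0122). The region in intron 2 of 2 (chr16:42255316-42256219, 904 bp) had 185 and 331 against 26.1 and 0. Its groups did not overlap, but this was the only member region that missed the threshold, with a log2 difference of 5.57 ± 1.94 (limma adjusted p = 0.0735). Its IgG value of 26.1 was the highest IgG value among the 17 regions. Both Gap43 regions had more signal in replicate 2 than in replicate 1, by 1.99 and 1.79 times. Nrn1 encodes neuritin, a membrane-anchored protein that promotes neurite growth, and lies on chromosome 13 (36725361 to 36735131, minus strand). Its region (chr13:36724609-36725466, 858 bp) covered the last 106 bp of the gene and had 186 and 190 in the Pou4f1 replicates against 0.977 and 0. The whole region also lies inside the annotated Fars2 gene on the other strand, so position does not tie it to Nrn1 alone. The log2 difference was 7.07 ± 0.54 (limma adjusted p = 0.00344), and the replicates were nearly equal.

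Sncg and Thy1, both long used as RGC markers, differed in where their region lay. Sncg encodes gamma-synuclein and lies on chromosome 14 (34370274 to 34374789, minus strand). Its region (chr14:34374430-34375186, 757 bp) covered the start, with 166 and 222 in the Pou4f1 replicates against 16.1 and 18.2 in IgG and the negative control. The log2 difference was 3.41 ± 0.41 (limma adjusted p = 0.00984). With each library divided by its total over all regions, it turned to −0.45 (limma adjusted p = 0.574). The region also lay within 1 kb of a start of Mmrn2, which is transcribed the opposite way, so it cannot be given to Sncg alone. The Sncg start region was the only own-start region of the 17 that covered the annotated 5′ end and had more signal in replicate 2. Thy1 encodes a surface glycoprotein of neurons and thymocytes and lies on chromosome 9 (44043384 to 44048579, plus strand). No region overlapped it, and the single region in its window, 18.2 kb past its end (chr9:44066763-44067652, 890 bp), lay at a start of Usp2, a deubiquitinase gene. That region had 222 and 105 in the Pou4f1 replicates and 0 in both IgG libraries, with a log2 difference of 7.26 ± 0.56 (limma adjusted p = 0.00357).

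Slc17a6 encodes the vesicular glutamate transporter of RGCs and lies on chromosome 7 (51622006 to 51671119, plus strand). It had 3 regions, and mean Pou4f1 signal per region was higher with distance from the gene start, an order that depended on region length. By signal multiplied by length, the region in intron 1 ranked 645, above that in intron 3 at 2507 and the start at 5230. The start region (chr7:51621489-51622466, 978 bp) had 158 and 114 in the Pou4f1 replicates and 0 in both IgG libraries, with a log2 difference of 7.08 ± 0.42 (limma adjusted p = 0.00224). The region in intron 1 (chr7:51623678-51625827, 2150 bp), which holds the 3 overlapping POU IV matches printed above and an octamer match, had 184 and 227 and was also at 0 in both IgG libraries, with a log2 difference of 7.68 ± 0.39 (limma adjusted p = 0.00222). The region in intron 3 of 11 (chr7:51629046-51629707, 662 bp) had 244 and 446 against 9.21 and 0, with a log2 difference of 6.69 ± 1.42 (limma adjusted p = 0.0317). That difference was 7.13 or 6.26 without Pou4f1 replicate 1 or 2, 8.37 without the IgG library and 5.02 without the negative control. The order of the 3 regions was the same in both replicates, and replicate 2 exceeded replicate 1 only in the intronic pair. Both intronic regions lie within 1 kb of starts of annotated transcripts that are not protein-coding. With only the gene's 5′ end counted as promoter, a definition added after the values were seen, the log2 ratio of start to intronic signal was −0.43 in replicate 1 and −1.56 in replicate 2.

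By position, 7 of the 17 regions lay within 1 kb of a start of a member gene, 1 at a start of another gene and 9 away from every annotated start. Of all 8028 regions on chromosomes, 5147 lay within 1 kb of a start and 2881 away. The 5 genes with a region at their own start were Sncg, Nefl, Nefm, Nefh and Slc17a6, and Gap43, Rbpms, Rbpms2, Thy1 and Nrn1 had none there. Among all 21938 protein-coding genes, 24.9% had such a region. A region overlapped the body of 9 of the 10 genes, beside 27.8% of all protein-coding genes, and a region away from starts lay within 50 kb of 6 of 10, beside 13.9%. The median length was 20.3 kb for the 10 genes and 17.4 kb for all protein-coding genes. The 9 regions away from starts had a median mean signal of 289 (all such regions 212), and the 8 near starts had 153 (all such regions 158). Of the 9, 3, all at Rbpms and Rbpms2, were in the top 10% of the table, as were 17.1% of all regions away from starts. Of the 8, 0 were, beside 309 of 5147 regions near starts in the whole table.

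The balance between the 2 Pou4f1 replicates differed by position, among the member regions and over the table. Replicate 2 exceeded replicate 1 in 7 of 9 member regions away from starts, with a median ratio of 1.25, and in 62.8% of all regions away from starts, with a median of 1.16. It did so in 3 of 8 member regions near starts, with a median of 0.890, and in 16.6% of all regions near starts, with a median of 0.701. These 3 were the Sncg start and the Slc17a6 regions in introns 1 and 3. The intronic pair count as near starts only through transcripts that are not protein-coding. They lie 2746.5 and 7370.5 bp from the nearest protein-coding start of Slc17a6. The ratio ran from 0.473 at the Usp2 start beside Thy1 to 2.26 in the Rbpms region at 130.0 kb. The rank of a member region therefore differed between replicates, from 489 to 46 for that Rbpms region and from 2897 to 5637 for the Usp2 start. Base composition moved with the same split, with a median GC content of 48.5% in the 9 member regions away from starts and 59.7% in the 8 near starts, and its part in the replicate difference was not tested.

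**Figure D4:**
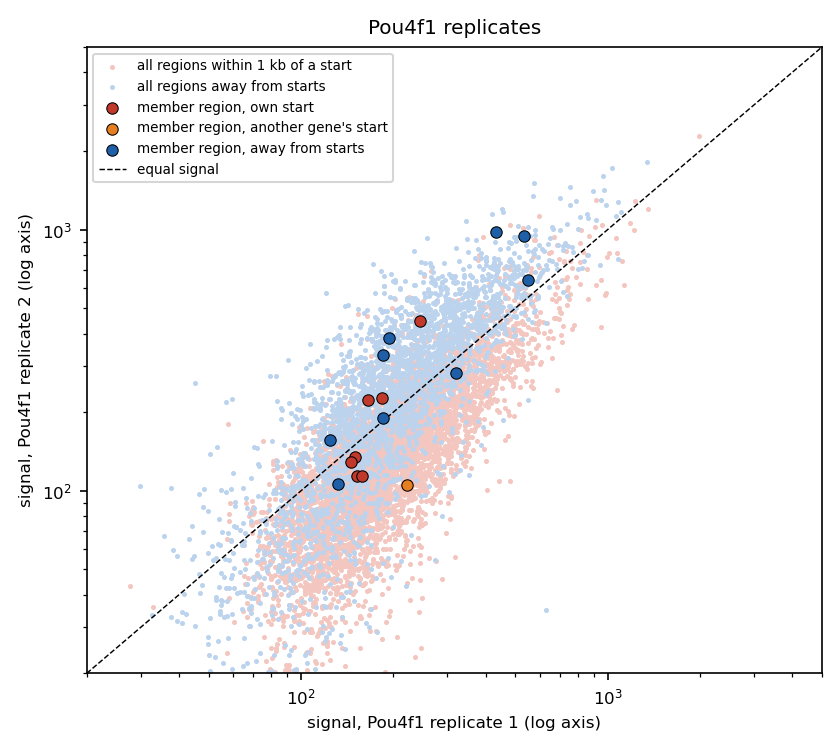
Signal of every region in Pou4f1 replicate 1 against replicate 2 (log axes), with regions near starts in light red, those away from starts in light blue and member regions as outlined points. Most member regions away from starts lie above the line of equal signal, and 5 of the 8 near starts lie below it.

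A POU-type motif lay in the middle of few of these regions, at a share near that of all regions. In the central 300 bases, 3 of 17 member regions held any of the 3 motifs (all regions 14.6%), namely the Sncg start, the Rbpms region past the 3′ end and the farther neurofilament distal region. By class this was 2 of 9 away from starts (all such regions 34.8%) and 1 of 8 near starts (all such regions 3.36%). Over the whole region, 8 of 17 held a match (all regions 28.3%), and over the central 200 bases 1 of 17 did (all regions 10.4%). By class the whole-region count was 5 of 9 away from starts (all such regions 58.7%) and 3 of 8 near starts (all such regions 11.2%). Among the 3 regions with the most signal, all away from starts, the central 300 bases of 1 held a match (all regions away from starts 34.8%). In the RefSeq promoter windows of the same build, 300 bases each, 6.43% of 32851 held any of the 3 motifs.

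Genes of the same families gave a comparison chosen by role. The 15 such genes were other intermediate filaments, growth-associated proteins, synucleins, vesicular glutamate transporters and a neuritin-like gene. Of these 15, 13 had a region within 50 kb (53.1% of all protein-coding genes) and 7 in the body (27.8% of all). At their own start 6 had a region (24.9% of all), and 5 had a region away from starts within 50 kb (13.9% of all). The highest own-start signals were at Slc17a8, a vesicular glutamate transporter gene, with 378 and 485 in the Pou4f1 replicates, and at Stmn2, a tubulin-binding growth-cone protein gene, with 414 and 396, and both were at 0 in both IgG libraries. Next came the intermediate filament genes Vim, with 204 and 187, and Synm, with 252 and 106, and the IgG values of this pair reached 32.2 at most. Slc17a8, Stmn2 and Synm exceeded every own-start region of the 10 marker genes in replicate 1, as did Slc17a8 in replicate 2. The highest of those own-start regions was that in Slc17a6 intron 3, with 244 and 446. Of 26 genes that mark other cells of the retina, 15 had a region within 50 kb (57.7%, near the share of all protein-coding genes). In the body 3 had a region (27.8% of all protein-coding genes), at their own start 2 (24.9%) and away from starts 2 (13.9%). Among those with an own-start region, Glul, a glial enzyme gene, had 161 and 150 in the Pou4f1 replicates against 33.1 and 9.34 in IgG and the negative control. The lists are short and were not tested against one another.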

How the data were processed

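CUT&Tag libraries of pooled E16.5 mouse retinas were compared, anti-Pou4f1 (n = 2) against rabbit IgG (n = 2). Per the labels and the study's methods, the authors mapped reads to mm10 with Bowtie2 (v2.4.5) and called peaks with SEACR (relaxed mode). The deposited table holds the mean signal per library in each of 8038 regions. No source used here states how that signal was scaled. The column headed as a negative control was taken as IgG, because the study names no other negative control than rabbit IgG. Columns were assigned to groups by name, 0 columns were left unused, and the H3K9AC library was not analysed here. Region starts were read as counted from 0 and are given counted from 1.

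Regions within 50 kb of a member gene were found in GENCODE M21. A region was called near a start when its midpoint lay within 1 kb of an annotated transcript start. log2(signal + 1) was tested with limma (3.58.1, R 4.3.3) over all 8038 regions, without covariates or a filter, at an adjusted p of 0.05 (Benjamini-Hochberg). The test was checked on simulated signal. Motif windows came from the GRCm38.p6 genome (8028 regions on chromosomes, with 10 on scaffolds left out), and promoter sequences from RefSeq tables of that build, which held entries for Rbpms2, Slc17a6 and Sncg. UTR sequence was printed only as short motif sites. All member genes and all their regions were named, and from each comparison list the genes with the highest own-start signal (4 of the related list, and those with an own-start region in the list of other retinal cells, of which 1 is not reported here). The members and lists were chosen with earlier results of these data known. Alternatives were pseudocounts of 0.1 and 10, IgG signal times 2 and 4, division by column totals, a summed-signal minimum of 50, a trended spread, each library left out, windows of 0, 10 and 100 kb, other start limits, and motif windows of 200 bp and the whole region. Depth in reads is unknown, so no counting intervals are given.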

Additional observations from a re-analysis of the deposited data

How the results depend on the processing

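Of the 17 member regions, 7 were called by limma under all 11 alternatives: those at the Nefh start, the farther neurofilament distal site, the Rbpms region at 130.0 kb, the Rbpms2 end, the Usp2 start, and the Slc17a6 start and intron 1. All but the Rbpms2 end are at 0 in both IgG libraries, so multiplying IgG signal could not change their differences. With 1 Pou4f1 library left out, the only spread within a group is that between the IgG libraries, which were equal at these regions. Their calls under those settings are therefore no sign of stability. The member count of 16 became 8 with IgG signal times 4 and 7 with column totals, and 9 to 17 over the fits that left out 1 library, with 9 when either Pou4f1 library was left out. The count over all regions, 5205, became 2949 with IgG signal times 2, 2152 with IgG signal times 4 and 1824 with column totals, and 2360 to 7710 over the fits that left out 1 library. In fits with 1 library in a group, that library is assumed to vary like the others. With column totals the log2 difference turned to −0.45 at the Sncg start and −0.83 at the Nefm start. Those totals sum signal over regions selected for Pou4f1 signal and were higher in the Pou4f1 libraries. The division by itself therefore lowers Pou4f1 signal relative to IgG signal. With signal multiplied by length the ratio of start to distal signal turned from −0.56 to 0.23 for Nefl and from −0.62 to 0.51 for Nefm. The start regions are the longer ones, which this measure favours by construction. Without either replicate these ratios ranged from −0.59 to −0.53 for Nefl and from −0.63 to −0.60 for Nefm. The best rank of a member region was 84, and 46 to 201 in the replicates taken alone. Member regions with a motif numbered 3, against 8 over the whole region and 1 in the central 200 bp. The number of member regions was 12 for gene bodies alone, 13 within 10 kb and 25 within 100 kb, and the number of genes with an own-start region ran from 4 to 7. No paired analysis was possible because the IgG columns carry no replicate number. With 2 libraries a group and IgG signal of less than 1 step per base, a log2 difference depends on the pseudocount and bounds no fold.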
